A study of Rattus norvegicus with 30 samples.

Results

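The basal state of rat hepatocytes living in a mouse liver was measured in unchallenged animals. Livers of 7 male chimeric mice with rat hepatocytes were compared with livers of 4 male Crl:CD(SD) rats, called SD below. These are 11 of the 30 arrays of the series and were chosen by their labels alone. All 11 animals were on the phenobarbital-free diet, at 0 ppm for 7 days, and none carried a labelled gene deletion. The other 19 arrays came from phenobarbital-fed animals and from rats without the constitutive androstane receptor (CAR), and entered the results below through the shared estimate of spread. The other 12 rat arrays also took part in choosing the probe that stands for a gene, the brightest over the 16 rat arrays. The labels used here give neither the strain of the hepatocyte donors, nor the mouse strain, nor the share of the liver that was replaced, nor the age of the animals. In such a chimera the transplanted hepatocytes are rat cells, while blood, blood vessels, Kupffer cells and other supporting cells come from the mouse, and some mouse hepatocytes can remain.

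Hepatocytes make most plasma proteins, clear drugs with cytochrome P450 enzymes and conjugating enzymes, and switch between storing and releasing fuel under insulin, glucagon and growth hormone. In the rat several P450 genes differ between the sexes through the pattern of growth hormone secretion. A hepatocyte in a foreign host receives that host's hormones, bile acids and blood, so the comparison asks how close its transcript levels are to those of the same cell type at home. RNA of the host is part of the measurement, because the arrays carry probes against rat transcripts and mouse transcripts can bind some of them.

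In the chimeric livers albumin, transthyretin, transferrin, the male P450 Cyp2c11 and the receptor genes for CAR and pregnane X receptor did not pass the test against SD livers on the scale used here, though each passed under at least 1 other scaling. Over all 17 hepatocyte markers, however, 9 were lower, 3 higher and 5 did not pass. Lipogenic genes were mostly lower. The IGF binding protein genes Igfbp1 and Igfbp2, glucose-6-phosphatase G6pc1 and most genes of cholesterol synthesis were higher. For G6pc1 this holds by its brightest probe, at 2.52 in log2 units, while a second probe differed by 0.40. Markers of macrophages, endothelium, lymphocytes and red cells were mostly lower.

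Each liver was read on one 1-colour Agilent rat array, and a level here is the log2 processed signal minus the log2 of the 75th percentile of that array. A level of 0 is therefore the brightness that 75% of the probes stayed below, and levels of different probes are not compared. A difference is chimeric minus SD, in log2 units with its standard error (SE), and p-values are limma's, adjusted by Benjamini-Hochberg over the 17443 genes tested, a count that includes transcripts without a symbol. The labels call the samples biological replicates, and the p-values measure the spread between them. The 7 chimeric arrays had 51.6% to 58.1% of probes well above background and 75th percentiles of 216 to 318 signal units, against 63.3% to 64.6% and 414 to 460 units on the 4 SD arrays. Chimeric arrays 2 and 4 had the lowest 75th percentiles, 235 and 216 units, and stood farthest from their group, with gene-wise deviations of SD 0.56 and 0.60 against 0.20 to 0.36 on the other 5. All 7 chimeric arrays lay on 1 slide and all 4 SD arrays on another, scanned on different days, so animal, slide and scan day cannot be told apart.

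Of the 17443 genes tested, 13002 passed an adjusted p of 0.05, which is 74.5%. By direction, 6704 genes (38.4%) were higher in chimeric livers and 6298 (36.1%) lower. At 2-fold or more these were 2538 (14.6%) and 3872 (22.2%), and the groups did not overlap for 10620 genes (60.9%). The balance at 2-fold was the other way round among the 13254 genes above background on all 11 arrays, where 2216 were higher and 1530 lower at 2-fold or more, and 6299 and 3488 at any size. Of the 3872 lower genes 1090 had no chimeric array above background, and of the 2538 higher genes 117 had no SD array above it. With so many calls the test alone says little about any one list, so each list below is read against these shares and against the median of all genes, 0.03. Among the 13254 genes above background on all 11 arrays the median was 0.28. A list median between 0.03 and 0.28 therefore lies above the median of all genes and below that of these brighter genes. The median SD over genes was 0.25 in chimeric livers and 0.13 in SD livers. It was the larger in chimeric livers for 81.7% of the genes above background on all 11 arrays. A spread shared by all groups can therefore understate that of the chimeric livers. Without chimeric arrays 2 and 4, 12216 genes passed. For single genes the difference without these 2 arrays is given only where the call changed. The size of other differences can rest on them as well.

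The zero of the scale matters for small differences. The 8 E1A spike-in probes, which report RNA added at labelling, were on average 0.11 higher on the chimeric arrays, with a range of -0.40 to 0.54, while the 75th percentile was lower by a log2 difference of -0.67. Centred on those probes, the median of all genes was -0.76, and under median centring it was 0.43. Among genes that passed, 51.6% were higher as scaled here, 50.7% after quantile normalization, 68.0% after median centring, 63.2% after centring on hepatocyte markers, 69.7% after normexp background correction scaled to the 75th percentile, 34.4% with the percentile taken over probes above background on all 30 arrays, and 14.8% with spike-in centring. For that reason the medians of single lists below are also given as the distance from the median of all genes, with its range over the 8 scalings compared. Centring moves every gene alike and leaves that distance as it is, so of the 8 only quantile normalization and normexp could change it.

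**Figure D1:**
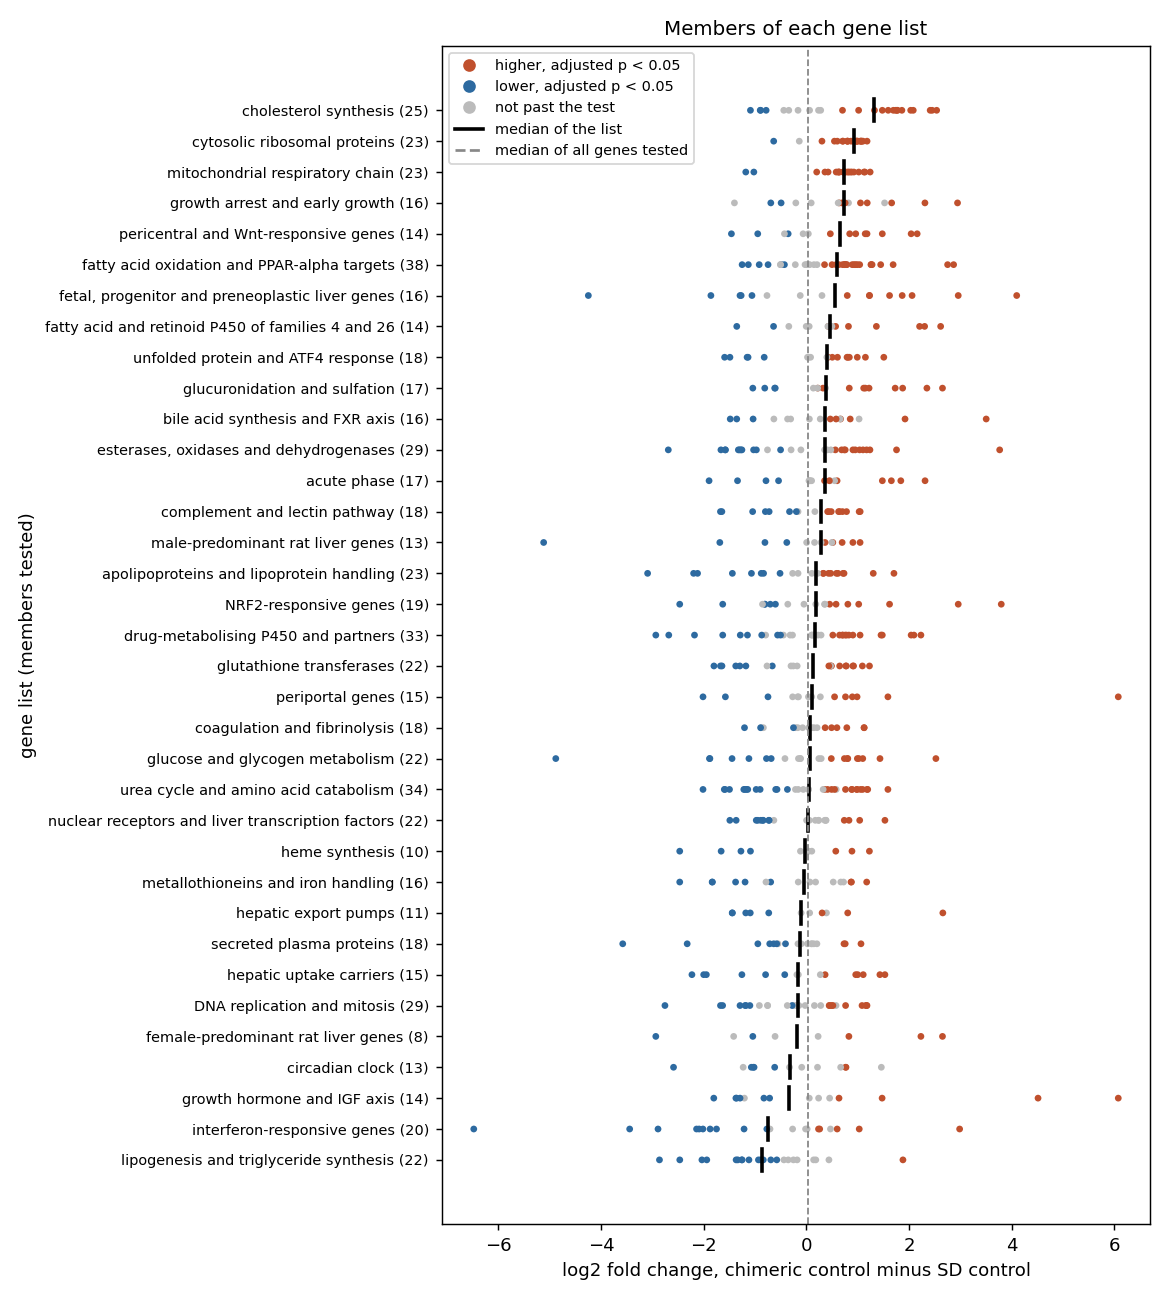
Each point is 1 tested gene of a list, placed by its log2 fold change (x axis, chimeric control minus SD control), with the 35 gene lists ordered by their median (black bar) and the number of members tested in parentheses. The cholesterol synthesis list lies farthest right with a median of 1.33 and the lipogenesis list farthest left with -0.86, while the median of all genes (dashed line) is 0.03.

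The label of the chimeric livers was first set against cell type markers. All 17 hepatocyte markers were well above background on all 11 arrays, and their mean level was 6.26 to 6.63 on the chimeric arrays and 6.78 to 6.84 on the SD arrays. Of these 17, 3 were higher, 9 lower and 5 did not pass, with a median of -0.41, which stayed below the median of all genes in each of the 8 scalings (-0.59 to -0.43). Alb lay at 8.54, 8.61 and 8.91 on the chimeric arrays, against 8.69, 8.69, 8.60 and 8.66 on the SD arrays (albumin; lowest, median and highest of the 7, then each of the 4), and the difference was 0.022 ± 0.10, adjusted p = 0.86. The albumin values of both groups overlapped. Ttr, the thyroxine carrier transthyretin, differed by 0.21 ± 0.11, adjusted p = 0.079, and Tf, the iron carrier transferrin, by -0.098 ± 0.10, adjusted p = 0.38. Cps1 lay at 0.75, 1.12 and 1.46 on the chimeric arrays, against 2.92, 3.40, 3.27 and 3.06 on the SD arrays. This gene encodes carbamoyl phosphate synthetase, the first enzyme of the urea cycle, and every chimeric value was below every SD value, a difference of -2.01 ± 0.15 (adjusted p = 1.1e-11).

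Of 83 tested markers of other liver cells, 60 were lower in chimeric livers and 10 higher, with a median of -1.64. For 15 of the 83 no chimeric array was well above background, so these entered the test through the SD arrays alone. On all 7 chimeric arrays 52 were above it. In bulk tissue, fewer cells of a type and less RNA per cell cannot be told apart, and here mouse transcripts that bind rat probes poorly would look the same; the part each plays was not tested. The macrophage and Kupffer cell list had a mean level of -1.34 to -0.99 on chimeric arrays and 1.61 to 1.98 on SD arrays, with 1 member higher and 12 lower of 16. Of the 16, 3 had no chimeric array above background. Aif1 lay at -6.70, -6.18 and -5.46 on the chimeric arrays, against 3.07, 3.26, 2.87 and 3.03 on the SD arrays, with no chimeric array above background, so by this probe the macrophage protein gene was at least 401-fold lower. A second Aif1 probe was above background on all 11 arrays and differed by only -2.03, so the bound holds for the probe and not for the gene. Bounds of this kind use, on each chimeric array, the lowest signal among probes above background or the probe's own signal if higher. Such a probe entered the test through the other group alone and had to differ, so no p-value is given with a bound. Where only some arrays of a group were above background, their number stands beside the value, and the difference is then no exact size. C1qc, a chain of complement C1q made by macrophages, was at least 165-fold lower and the scavenger receptor gene Marco at least 57.6-fold. The Kupffer cell lectin gene Clec4f differed by -1.87 ± 0.15 and stayed above background in all 7 chimeric livers, as did Cd68 at -4.42 ± 0.18. Cd14, a lipopolysaccharide receptor that hepatocytes can also make, was the 1 higher member, at 1.48 ± 0.26.

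Endothelial markers were lower in 10 of 12 members and higher in none, with mean levels of -3.79 to -2.44 on chimeric and -0.49 to -0.35 on SD arrays. Of the 12, 4 had no chimeric array above background and entered the test through the SD arrays alone. Tie1, Emcn and Oit3 had no chimeric array above background and were at least 6.87-fold, 6.72-fold and 17.7-fold lower. The T, NK and B cell list was lower in 11 of 13 members and higher in 1. Of the 13, 6 likewise had no chimeric array above background. In this list Cd3g, a T cell receptor chain, was at least 5.4-fold and the killer cell protein gene Prf1 at least 18.5-fold lower. Of 7 MHC class II genes 5 were lower and 1 higher, and of 4 neutrophil markers 2 were lower. Stellate cell and fibroblast markers were lower in 13 of 17 members and higher in 4, one of them the matrix proteoglycan gene Dcn at 1.37 ± 0.21. The cholangiocyte list split into 3 higher and 4 lower of 9, and its median was below that of all genes except after normexp correction. Among 5 erythroid markers 3 were lower, and Hbb lay at -6.88, -6.54 and -6.20 on the chimeric arrays, against 7.97, 6.61, 7.18 and 6.73 on the SD arrays. No chimeric array was above background for this beta globin probe, so it was at least 6722-fold lower by this probe. A second Hbb probe was above background on all 11 arrays and differed by only -2.47.

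**Figure D2:**
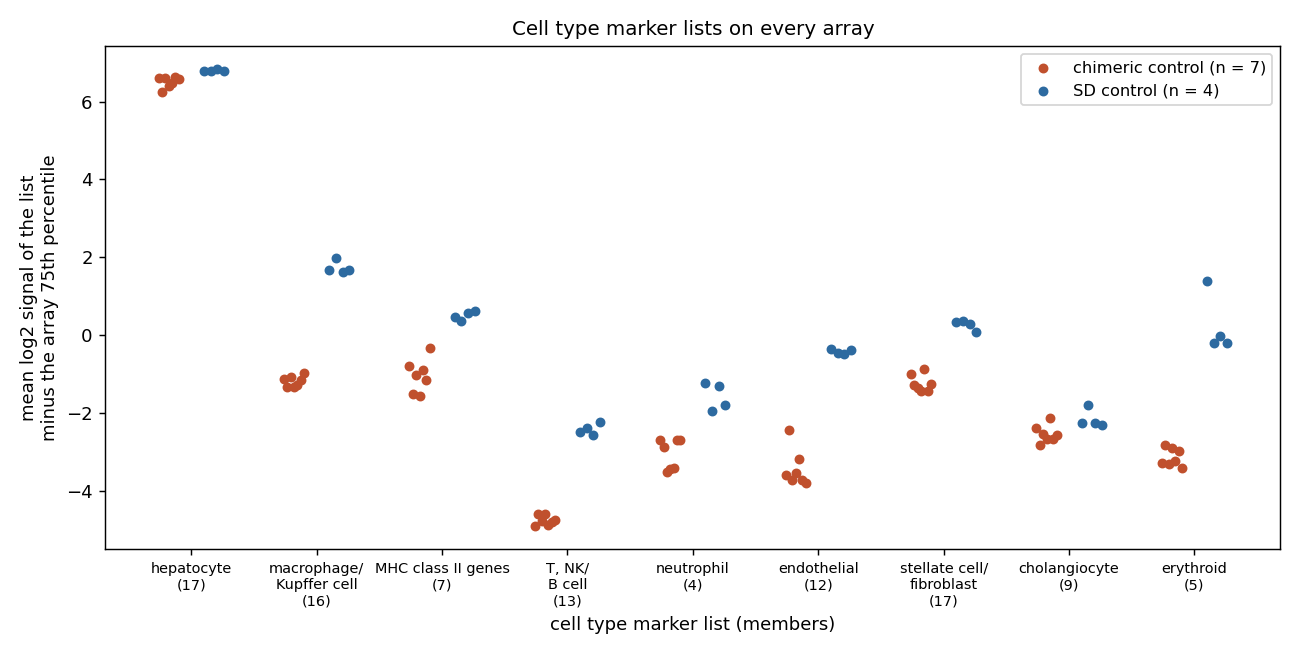
The y axis gives the mean log2 signal of each marker list on every array, relative to the array's 75th percentile, with the 7 chimeric control arrays left and the 4 SD control arrays right in each pair. Hepatocyte markers sit at 6.26 to 6.63 in chimeric and 6.78 to 6.84 in SD livers, and the macrophage list at -1.34 to -0.99 and 1.61 to 1.98.

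Mlxipl and Thrsp, both regulators of lipogenic genes, were lower. Mlxipl encodes ChREBP, the carbohydrate-sensing activator of lipogenic genes. Mlxipl lay at -1.48, -1.13 and -0.74 on the chimeric arrays, against 1.41, 1.03, 1.41 and 1.47 on the SD arrays. The groups did not overlap and the difference was -2.47 ± 0.15 (adjusted p = 5.5e-14). Thrsp lay at -0.27, 1.93 and 2.84 on the chimeric arrays, against 5.08, 3.44, 4.41 and 4.96 on the SD arrays. This lipogenic regulator of liver and fat, also called Spot 14, differed by -2.86 ± 0.42 with no overlap (adjusted p = 1e-06).

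The lipogenesis and triglyceride synthesis list had 22 of its 24 members tested, of which 14 were lower, 1 higher and 7 not past the test. Its median was -0.86, and it stayed below the median of all genes in all 8 scalings (-1.03 to -0.89). Scd lay at 1.38, 3.17 and 5.30 on the chimeric arrays, against 6.87, 3.08, 4.65 and 5.78 on the SD arrays. Scd encodes stearoyl-CoA desaturase, and its values ran widely and overlapped, with a difference of -2.03 ± 0.67 (adjusted p = 0.0083). SD rat 1 had the highest Scd value, 6.87, and without that array the difference was -1.44, adjusted p = 0.067. The fatty acid synthase gene Fasn behaved likewise, at -1.25 ± 0.43 (adjusted p = 0.011) and -0.85, adjusted p = 0.092 without SD rat 1, and -1.05, adjusted p = 0.051 without SD rat 4. Neither passed with the replicate block or with the array position as a block. The 1 higher member was Pnpla2, adipose triglyceride lipase, which releases fatty acids from stored fat, at 1.88 ± 0.21 (adjusted p = 9.8e-09).

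Glucose output genes were not uniform. G6pc1 lay at 6.75, 7.78 and 8.19 on the chimeric arrays, against 4.71, 5.62, 4.34 and 5.66 on the SD arrays. G6pc1 is the catalytic subunit of glucose-6-phosphatase, the last step of glucose release, and its groups did not overlap, with a difference of 2.52 ± 0.39 (adjusted p = 2.6e-06). A second G6pc1 probe differed by 0.40. Its partner Slc37a4, the glucose-6-phosphate transporter, differed by 1.1 ± 0.14 and Gpt, alanine aminotransferase, by 1.44 ± 0.22. Pck1, the gluconeogenic phosphoenolpyruvate carboxykinase, did not pass at -0.15 ± 0.34, adjusted p = 0.7. Phosphoglucomutase Pgm1 and hexokinase Hk1 were lower, at -1.89 ± 0.47 and -1.88 ± 0.24. Over the whole glucose and glycogen list 9 of 22 genes were higher and 7 lower, with a median of 0.065 that turned negative with quantile normalization, spike-in centring and the percentile over probes above background on all 30 arrays. Its distance from the median of all genes ran over -0.18 to 0.076 and changed side.

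The IGF binding proteins carry insulin-like growth factors in blood, and insulin switches Igfbp1 off. Igfbp2 lay at 2.15, 3.68 and 4.79 on the chimeric arrays, against -2.76, -1.82, -2.44 and -2.74 on the SD arrays. Igfbp1 lay at 2.76, 4.96 and 6.91 on the chimeric arrays, against 0.88, -0.10, -0.40 and 0.28 on the SD arrays. Both were higher in every chimeric liver than in any SD liver, by 6.08 ± 0.43 (adjusted p = 2.6e-12) and 4.51 ± 0.51 (adjusted p = 1.5e-08), and Igfbp1 spread widely among the chimeric livers. A second Igfbp2 probe differed by 4.47. Igfbp4 was also higher, at 1.48 ± 0.14. Igfbp3, the main carrier in plasma, was lower at -1.36 ± 0.11, and the growth hormone receptor gene Ghr at -0.83 ± 0.13. The kinase gene Jak2 and the transcription factor gene Stat5b, which relay growth hormone signals, were lower at -1.80 ± 0.20 and -1.37 ± 0.34, each with 6 of 7 chimeric arrays above background. Igf1 itself did not pass, at 0.057 ± 0.11, adjusted p = 0.64, and its second probe differed by -0.53. Of the 14 tested genes of this axis 4 were higher and 6 lower, with a median of -0.33 that turned positive under median centring and stood below the median of all genes in all 8 scalings (-0.53 to -0.36).

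**Figure D3:**
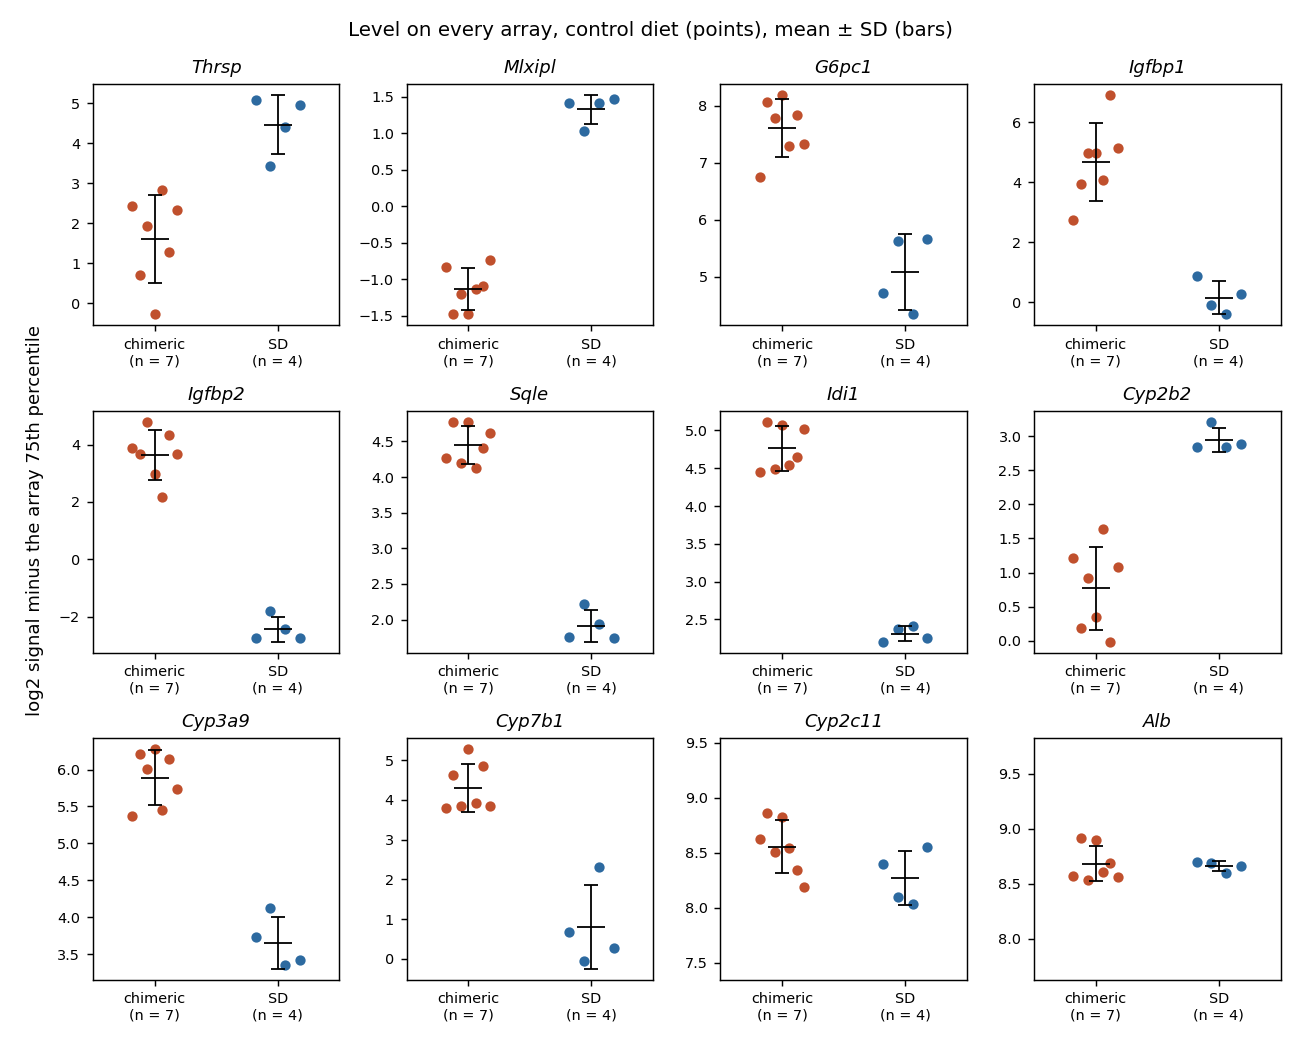
Each panel plots 1 gene on every array, with the 7 chimeric control livers left and the 4 SD control livers right. The y axis is the log2 signal relative to the array's 75th percentile, and bars give the mean and SD of each group. Thrsp, Mlxipl and Cyp2b2 are lower in all 7 chimeric livers than in any SD liver, G6pc1, Igfbp1, Igfbp2, Sqle, Idi1, Cyp3a9 and Cyp7b1 are higher, and Cyp2c11 and Alb overlap.

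Cholesterol synthesis was the list farthest above the rest. The pathway turns acetyl-CoA into cholesterol through mevalonate, and the transcription factor SREBP2 raises its genes together when membrane sterol is low. All 25 members were tested, of which 15 were higher (14 of them at 2-fold or more), 4 lower and 6 not past the test. The median was 1.33, and it was above the median of all genes by 0.87 to 1.30 over the 8 scalings. Sqle lay at 4.13, 4.42 and 4.78 on the chimeric arrays, against 1.75, 2.22, 1.94 and 1.74 on the SD arrays. Idi1 lay at 4.45, 4.65 and 5.11 on the chimeric arrays, against 2.21, 2.37, 2.42 and 2.25 on the SD arrays. Tm7sf2 lay at 5.46, 5.51 and 6.21 on the chimeric arrays, against 3.14, 3.73, 3.1 and 3.11 on the SD arrays. These encode squalene epoxidase, isopentenyl diphosphate isomerase and a sterol reductase, and their groups did not overlap, with differences of 2.54 ± 0.25, 2.45 ± 0.22 and 2.41 ± 0.22 (adjusted p = 1.4e-09, 2.8e-10 and 3.5e-10). Not all of the list moved that way. The sterol sensor gene Insig1 differed by -1.09 ± 0.29, with overlapping groups, and the sterol dehydrogenase gene Nsdhl by -0.89 ± 0.16. Fdps, farnesyl diphosphate synthase, was lower at -0.90 ± 0.36 (adjusted p = 0.025) but -0.38, adjusted p = 0.2 without chimeric arrays 2 and 4. Leaving out chimeric array 2 or 4 or SD rat 1 or 3 alone also ended its call, and a second Fdps probe differed by 0.22.

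Promoter sequence of 3 cholesterol genes, 2 that were higher and 1 that was lower, is shown because the list moved together in part. RefSeq sequence of rat build GRCr8, 300 bases around the start of a gene, was at hand for 17 of the 25 genes. The sequences run 5′ to 3′ in the direction of the gene, with capitals for CCAAT on either strand, the letters read by the factor NF-Y that works beside SREBP2. The windows are Idi1 at chr17:66547475-66547774, minus strand, Tm7sf2 at chr1:212789492-212789791, minus strand and Nsdhl at chrX:155817110-155817409, plus strand.
Idi1: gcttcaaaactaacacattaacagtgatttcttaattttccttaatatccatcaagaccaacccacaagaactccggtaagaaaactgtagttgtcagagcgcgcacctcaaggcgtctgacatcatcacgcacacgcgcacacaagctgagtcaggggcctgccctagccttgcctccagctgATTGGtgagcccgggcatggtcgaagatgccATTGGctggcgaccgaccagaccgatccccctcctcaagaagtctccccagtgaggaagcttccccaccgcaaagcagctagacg
Tm7sf2: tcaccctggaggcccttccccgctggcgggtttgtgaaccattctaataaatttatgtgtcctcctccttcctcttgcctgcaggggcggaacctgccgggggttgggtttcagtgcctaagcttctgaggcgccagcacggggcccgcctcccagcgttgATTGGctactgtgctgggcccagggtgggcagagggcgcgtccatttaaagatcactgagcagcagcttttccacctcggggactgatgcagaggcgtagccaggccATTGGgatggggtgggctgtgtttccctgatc
Nsdhl: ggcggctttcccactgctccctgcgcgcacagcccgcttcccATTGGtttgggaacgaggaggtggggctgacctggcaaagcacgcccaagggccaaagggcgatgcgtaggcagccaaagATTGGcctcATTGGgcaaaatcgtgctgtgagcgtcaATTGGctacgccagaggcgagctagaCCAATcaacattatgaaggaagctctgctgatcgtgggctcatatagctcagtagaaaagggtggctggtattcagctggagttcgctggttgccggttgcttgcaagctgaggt
CCAAT was present in 14 of the 17 windows, against 37.7% of 27457 promoter windows of the same length, 1 for each symbol. Of these 14 genes 9 were higher, 3 lower and 2 did not pass. The core of a sterol regulatory element, searched as TCACNCCAC on both strands, was in none of the 17 windows and in 1.13% of all, which says only that these letters are not there. A match is a description of the letters.

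Fatty acid oxidation genes were more often higher than lower. Of 38 genes tested 22 were higher, 6 lower and 10 not past the test, with a median of 0.61 that stood above that of all genes in all 8 scalings (0.076 to 0.58) but was below 0 with spike-in centring. Cd36 lay at 3.86, 4.53 and 4.90 on the chimeric arrays, against 1.61, 1.92, 1.92 and 0.78 on the SD arrays. This fatty acid uptake receptor, which macrophages, endothelium and fat cells also carry, was higher without overlap, at 2.87 ± 0.24 (adjusted p = 5.9e-11). Vnn1, a pantetheinase, differed by 2.75 ± 0.30 and the acyl-CoA thioesterase gene Acot2 by 1.69 ± 0.16, where a second Acot2 probe differed by 0.16. Cyp4a1, the fatty acid hydroxylase P450 under PPAR-alpha control, lay at 5.22, 5.82 and 6.59 on the chimeric arrays, against 3.41, 3.44, 3.53 and 3.74 on the SD arrays. All 7 chimeric livers had more of it, by 2.30 ± 0.30 (adjusted p = 1.2e-07). The receptor gene Ppara differed by 1.04 ± 0.31 with overlapping groups, and lost its call with spike-in centring and with the replicate block. The gate of mitochondrial import, Cpt1a, did not pass, at 0.21 ± 0.26, adjusted p = 0.48. The thiolase gene Acaa2 was lower at -1.13 ± 0.37 and -0.56, adjusted p = 0.055 without chimeric arrays 2 and 4.

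The drug-metabolising P450 genes and their partners split. Of 33 tested, 14 were higher, 9 lower and 10 not past the test, with a median of 0.16 whose side of the all-gene median turned with quantile normalization and normexp (-0.27 to 0.13). The list median of 0.16 lay below the 0.28 of the genes above background on all 11 arrays. Cyp3a9 lay at 5.38, 6.01 and 6.28 on the chimeric arrays, against 3.73, 4.13, 3.35 and 3.42 on the SD arrays. Cyp1a2 lay at 5.57, 5.93 and 6.20 on the chimeric arrays, against 3.84, 3.61, 4.43 and 3.50 on the SD arrays. Both oxidise drugs and steroids, and every chimeric value was above every SD value, by 2.23 ± 0.21 (adjusted p = 5.9e-10) and 2.04 ± 0.17 (adjusted p = 4e-11). Cyp3a23-3a1, a pregnane X receptor target of rat liver, differed by 1.46 ± 0.16, the arachidonic acid epoxygenase gene Cyp2j4 by 2.10 ± 0.18 and the ethanol-inducible Cyp2e1 by 1.48 ± 0.17. Cyp2b2 lay at -0.014, 0.92 and 1.63 on the chimeric arrays, against 2.84, 3.21, 2.84 and 2.88 on the SD arrays. Cyp2b2, a classical target of CAR, was lower in all 7 chimeric livers, with a difference of -2.18 ± 0.25 (adjusted p = 1.3e-08), while a second Cyp2b2 probe differed by -0.42. Cyp2c22 was lower at -2.68 ± 0.22. Probes of the Cyp2b, Cyp2c and Cyp3a families may bind close relatives in rat and mouse, and how far they did was not tested.

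Among the P450 genes for fatty acids and retinoids, 7 of 14 were higher and 2 lower, with a median of 0.46, above that of all genes in all 8 scalings (0.035 to 0.44) but below 0 with spike-in centring. Cyp26b1 and Cyp26a1, which degrade retinoic acid, were higher in every chimeric liver, by 2.62 ± 0.41 and 2.21 ± 0.42. Cyp4b1 was lower at -1.36 ± 0.25 but did not pass after normexp correction, and 5 of 7 chimeric arrays were above background for it.

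In the glucuronidation and sulfation list 10 of 17 were higher and 4 lower, with a median of 0.37 that turned negative with quantile normalization and spike-in centring and whose distance from the median of all genes, -0.23 to 0.35, changed side. The sulfotransferase genes Sult2a6 and Sult1c2 differed by 2.65 ± 0.42 and 2.35 ± 0.20 and the glucuronosyltransferase gene Ugt2b1 by 1.88 ± 0.29, each without overlap. The steroid sulfotransferase gene Sult2a1 was lower at -1.04 ± 0.40 (adjusted p = 0.022), with overlapping groups, and it did not pass without chimeric array 1 or 3 or SD rat 3 (-0.88 to -0.85). Of 22 glutathione transferase genes, 10 were higher and 7 lower. The alpha class members Gsta6 and Gsta2 and the zeta class Gstz1 were higher at 1.23 ± 0.16, 1.09 ± 0.20 and 0.92 ± 0.14, while the mu class Gstm4 and Gstm2 and the microsomal Mgst1 were lower at -1.67 ± 0.32, -1.64 ± 0.36 and -1.80 ± 0.29. Gsta3 was lower at -1.18 ± 0.18 by its brightest probe and 3.44 by another, so its direction depends on the probe. Gstp1, a marker of preneoplastic rat liver, did not pass at -0.77 ± 0.54, adjusted p = 0.2.

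Among esterases, oxidases and dehydrogenases 12 of 29 were higher and 11 lower. Aldh1a1 lay at 4.94, 5.40 and 5.81 on the chimeric arrays, against 1.11, 2.88, 0.84 and 1.78 on the SD arrays. This retinaldehyde dehydrogenase was higher in all 7 chimeric livers, by 3.77 ± 0.31 (adjusted p = 3.4e-11). The alcohol dehydrogenase genes Adh7 and Adh4 were higher at 1.76 ± 0.24 and 1.24 ± 0.19, the carboxylesterase gene Ces1d at 0.95 ± 0.19 and the flavin monooxygenase gene Fmo1 at 0.91 ± 0.23. Monoamine oxidase Maob and the flavin monooxygenase Fmo4 were lower at -1.58 ± 0.15 and -1.66 ± 0.28, with 5 of 7 chimeric arrays above background for Fmo4. Fmo2 was lower at -2.69 ± 0.24 with 1 of 7 chimeric arrays above background, so its size is not exact, and its second probe differed by -0.34.

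Uptake carriers and export pumps moved both ways. Of 15 uptake carriers 6 were higher and 6 lower, and of 11 export pumps 3 were higher and 5 lower. Slc10a1 lay at 6.34, 6.58 and 6.95 on the chimeric arrays, against 5.45, 5.51, 5.38 and 5.65 on the SD arrays. Slc10a1 encodes NTCP, which takes bile acids up from blood, and it was higher without overlap, at 1.11 ± 0.10 (adjusted p = 2.8e-10). Abcb11 lay at 0.76, 1.76 and 1.92 on the chimeric arrays, against 2.82, 2.89, 2.70 and 3.06 on the SD arrays. Abcb11 encodes the bile salt export pump, and it was lower in every chimeric liver, at -1.44 ± 0.21 (adjusted p = 1.3e-06). The multidrug pump gene Abcb1a was higher at 2.66 ± 0.32, with 1 of 4 SD arrays above background. Slco1b2, an organic anion carrier, and Abcc2, a conjugate export pump, did not pass at -0.18 ± 0.14, adjusted p = 0.25 and -0.10 ± 0.19, adjusted p = 0.63. Both passed as lower with quantile normalization (-0.69 and -0.63) and spike-in centring (-0.97 and -0.88). They did so too with the percentile over probes above background on all 30 arrays (-0.56 and -0.47). Slco1b2 also passed as lower without chimeric arrays 2 and 4 (-0.33, adjusted p = 0.023). The carnitine carrier gene Slc22a5 and the aromatic amino acid carrier gene Slc16a10 were higher at 1.53 ± 0.23 and 1.43 ± 0.24. The organic anion and prostaglandin carriers Slco2a1 and Slco2b1 and the phosphate and urate carrier Slc17a1 were lower at -2.23 ± 0.35, -1.95 ± 0.27 and -2.0 ± 0.25. The cholesterol exporter gene Abca1 was lower at -1.44 ± 0.14 and Abcc6 at -1.18 ± 0.089. Slco2a1 and Abca1 are also made by endothelium and macrophages, whose marker lists were lower in the same livers, and the part of those cells was not tested.

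Bile acid synthesis showed a large rise in 1 enzyme. Cyp7b1 lay at 3.78, 3.93 and 5.28 on the chimeric arrays, against 0.68, -0.063, 2.32 and 0.27 on the SD arrays. Cyp7b1, the oxysterol hydroxylase of the alternative pathway, was higher in every chimeric liver by 3.50 ± 0.36 (adjusted p = 2.3e-09). Slc27a5, the ligase that prepares bile acids for conjugation, was higher at 1.92 ± 0.23. Cyp27a1, the sterol hydroxylase that starts the alternative pathway, was lower at -1.36 ± 0.37, Cyp39a1 at -1.04 ± 0.13 and Fgfr4, the receptor for the intestinal hormone FGF15, at -1.48 ± 0.34 with 6 of 7 chimeric arrays above background. Cyp27a1 lay at 0.14 and 0.62 on chimeric arrays 2 and 4, against 2.23 to 2.67 on the other chimeric arrays. Cyp7a1, the rate-limiting enzyme of the classical pathway, spread from -0.15 to 3.20 over the chimeric arrays and did not pass, at 1.03 ± 0.70, adjusted p = 0.18. Nr0b2, the repressor SHP, did not pass at -0.63 ± 0.59, adjusted p = 0.34. Over the list 6 of 16 were higher and 3 lower.

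In the plasma protein list 3 of 18 were higher, 7 lower and 8 not past the test, and its median of -0.13 was below that of all genes in all 8 scalings (-0.52 to -0.16). Lrg1 lay at -2.24, 0.28 and 0.70 on the chimeric arrays, against 3.31, 3.03, 3.37 and 3.08 on the SD arrays. This leucine-rich glycoprotein of the acute phase was lower without overlap, at -3.58 ± 0.57 (adjusted p = 3.4e-06). Serpina6, the corticosteroid carrier, was lower at -2.32 ± 0.36, and Azgp1, a lipid-mobilising glycoprotein, was higher at 1.06 ± 0.11. For coagulation, 6 of 18 were higher and 3 lower. Prothrombin, F2, differed by 0.49 ± 0.10 and coagulation factor F9 by -0.073 ± 0.095, adjusted p = 0.49. The contact system genes Klkb1 and Kng1 were higher at 1.13 ± 0.27 and 1.12 ± 0.23, while Hgfac, the activator of hepatocyte growth factor, and the antiplasmin gene Serpinf2 were lower at -1.20 ± 0.33 and -0.89 ± 0.27. Hgfac lay at 1.83 and 1.68 on chimeric arrays 2 and 4, against 3.09 to 3.64 on the other chimeric arrays.

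Of 18 complement and lectin genes 9 were higher and 7 lower. Both chains of C4b-binding protein were higher, C4bpa at 1.03 ± 0.13 and C4bpb at 1.05 ± 0.11, and C9 at 0.44 ± 0.13. C3, the central component, differed by -0.33 ± 0.087, the mannose-binding lectin gene Mbl1 by -1.65 ± 0.38 and C2 by -1.67 ± 0.42. C2 lay at 0.14 and 0.40 on chimeric arrays 2 and 4, against 1.92 to 2.84 on the other chimeric arrays. Mbl1 lay at 1.41 and 1.61 on those 2 arrays, against 2.67 to 3.79 on the others. A second C2 probe differed by -0.95. Among 23 apolipoprotein and lipoprotein genes 10 were higher and 8 lower. Apob, the protein of very low density lipoprotein, differed by -0.51 ± 0.10, but by -0.11, adjusted p = 0.48 under median centring and -0.22, adjusted p = 0.13 centred on hepatocyte markers, and it did not pass with the replicate block (adjusted p = 0.052). Apoa1, the main protein of high density lipoprotein, differed by -1.07 ± 0.42 (adjusted p = 0.024) but -0.43, adjusted p = 0.2 without chimeric arrays 2 and 4, and its call also ended without either of them or without SD rat 1. Pltp lay at -4.16, -2.15 and -1.60 on the chimeric arrays, against 0.37, 1.03, 0.13 and 0.29 on the SD arrays. Pltp, which moves phospholipid between lipoproteins, was lower without overlap at -3.09 ± 0.46 (adjusted p = 1.4e-06), with 6 of 7 chimeric arrays above background. Also lower were the remnant receptor gene Lrp1 at -2.20 ± 0.35 and the paraoxonase gene Pon1 at -2.12 ± 0.22. Apoc4 was higher at 1.30 ± 0.15. The high density lipoprotein receptor gene Scarb1 was higher at 1.71 ± 0.13 by its brightest probe, against -0.83 by another.

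Urea cycle and amino acid genes moved both ways. Of 34 tested, 14 were higher and 13 lower. Besides Cps1, given above, the lower members included Otc, ornithine transcarbamylase, at -1.60 ± 0.15 and Nags, which makes the Cps1 activator, at -1.58 ± 0.40. Nags lay at -0.57 and -1.42 on chimeric arrays 2 and 4, against 0.48 to 1.56 on the other chimeric arrays. Ahcy, which clears S-adenosylhomocysteine, and Oat, ornithine aminotransferase, were higher at 1.20 ± 0.14 and 1.18 ± 0.25. Serine dehydratase, Sds, differed by 1.59 ± 0.67 (adjusted p = 0.034), with chimeric array 6 highest at 5.90, and 1.11, adjusted p = 0.085 without it. Its call also ended without SD rat 1, 2 or 3 (1.32 to 1.60). Tat, tyrosine aminotransferase, did not pass at -0.059 ± 0.33, adjusted p = 0.88.

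Genes that mark position in the lobule were read as lists. Pericentral genes lie next to the central vein under Wnt signals, and 8 of 14 were higher and 3 lower, with a median of 0.66, above that of all genes in all 8 scalings (0.31 to 0.63) but below 0 with spike-in centring. Glutamine synthetase, Glul, differed by 1.15 ± 0.29 with overlap and the glutamate carrier gene Slc1a2 by 2.16 ± 0.30 without it. Axin2, a direct Wnt target, was lower at -1.46 ± 0.34, with 5 of 7 chimeric arrays above background. Of 15 periportal genes 6 were higher and 3 lower. Glutaminase Gls2 differed by 0.99 ± 0.16, and histidine ammonia lyase Hal by 0.55 ± 0.18, which became negative with quantile normalization and spike-in centring and was 0.36, adjusted p = 0.052 without chimeric arrays 2 and 4.

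Sex-dependent genes were examined because all animals were male. Of 13 male-predominant rat genes 5 were higher, 4 lower and 4 not past the test, and of 8 female-predominant genes 3 were higher, 2 lower and 3 not. Cyp2c11 lay at 8.19, 8.55 and 8.86 on the chimeric arrays, against 8.39, 8.10, 8.03 and 8.55 on the SD arrays. Cyp2c11, the main male P450 of rat liver, overlapped between the groups and did not pass at 0.29 ± 0.18, adjusted p = 0.15. Obp3, a male-predominant lipocalin, differed by 0.0059 ± 0.10, adjusted p = 0.96. Cyp3a18 and Cyp3a2 were higher at 1.05 ± 0.16 and 0.91 ± 0.26. Stac3 lay at -1.41, 0.48 and 1.76 on the chimeric arrays, against 5.24, 5.66, 5.41 and 5.38 on the SD arrays. Stac3, known as a muscle adaptor protein, was lower in all 7 chimeric livers, with a difference of -5.12 ± 0.48 (adjusted p = 4.8e-10), and Ust5r, an organic anion transporter gene, at -1.69 ± 0.20. Cyp2c12 lay at -1.17, -0.029 and 0.46 on the chimeric arrays, against 3.31, 2.81, 1.23 and 3.29 on the SD arrays. Cyp2c12, the main female P450 of rat liver, was lower in chimeric livers without overlap, with a difference of -2.93 ± 0.44 (adjusted p = 1.3e-06). The female-predominant list did not move 1 way. Its members Sult2a6 and Cyp3a9, both given above, were among the 3 that were higher in chimeric livers, at 2.65 and 2.23. Steroid reductase Srd5a1, also higher in females, lay just short of the threshold at -0.61 ± 0.28, adjusted p = 0.053. It passed as lower in 9 of the alternatives, at -1.39 to -0.61, among them quantile normalization and the mean of all probes, and a second probe differed by -1.17.

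Among liver transcription factors, Nr1i3, the gene of CAR, lay at 0.98, 1.32 and 2.02 on the chimeric arrays, against 0.92, 1.88, 0.76 and 1.14 on the SD arrays. The values overlapped and the difference did not pass, at 0.24 ± 0.25, adjusted p = 0.39, with -0.45 by a second probe. Nr1i2, the gene of the pregnane X receptor, lay just short of the threshold at 0.38 ± 0.17, adjusted p = 0.051. It passed as higher in 10 of the alternatives, at 0.38 to 0.78, and as lower with spike-in centring (-0.40, adjusted p = 0.04). Hnf4a, a master regulator of hepatocyte genes, was lower at -0.73 ± 0.19 (adjusted p = 0.0014), but its call ended under median centring (-0.33, adjusted p = 0.12) and with the replicate block (adjusted p = 0.064). Foxa3 and the thyroid hormone receptor gene Thra were lower at -1.37 ± 0.25 and -1.49 ± 0.31, with 6 of 7 chimeric arrays above background for Thra. Cebpb, a factor of the acute phase and of fasting, was higher at 1.53 ± 0.25, and Foxa1 at 0.83 ± 0.16 by its brightest probe and -0.11 by another. Of 22 such genes 4 were higher, 9 lower and 9 not past the test.

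Of the acute phase genes 7 of 17 were higher, 4 lower and 6 not past the test. Haptoglobin, Hp, and the rat acute phase protein A2m did not pass, at 0.073 ± 0.096, adjusted p = 0.5 and 0.065 ± 0.52, adjusted p = 0.91. Stat3, which relays interleukin-6 signals, lay at 4.15, 4.63 and 4.83 on the chimeric arrays, against 3.15, 1.80, 3.29 and 2.52 on the SD arrays, and was higher at 1.84 ± 0.21 (adjusted p = 2.2e-08). The receptor antagonist gene Il1rn and the iron-binding lipocalin gene Lcn2 were higher at 1.66 ± 0.33 and 2.31 ± 0.61, the second with overlapping groups and 3 of 4 SD arrays above background. Crp and Apcs, the pentraxins, were lower at -1.34 ± 0.14 and -0.79 ± 0.12, and the metalloreductase gene Steap4 at -1.90 ± 0.25, with -3.26 by its second probe. Among metallothionein and iron genes 3 of 16 were higher and 6 lower, and 1 of the 16 had no chimeric array above background. Mt1 and the iron hormone gene Hamp did not pass, at 0.73 ± 0.38, adjusted p = 0.087 and 0.67 ± 0.76, adjusted p = 0.43. Both passed as higher in a fit on only the 11 arrays (adjusted p = 0.033 and 0.046) and with the replicate block (0.030 and 0.017). Mt1 also passed under median centring, centred on hepatocyte markers and without chimeric array 5 (0.88 to 1.13). Id1, a target of BMP signals, was higher at 1.18 ± 0.24 and the BMP co-receptor gene Hjv and the metal carrier gene Slc39a14 were lower at -1.83 ± 0.24 and -1.84 ± 0.36. Of 10 heme synthesis genes 3 were higher and 4 lower, among them Alas1, the rate-limiting enzyme, at 1.23 ± 0.21, and ferrochelatase, Fech, at -1.66 ± 0.25. Heme oxygenase, Hmox1, which macrophages also make, was lower at -2.47 ± 0.32.

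In the growth arrest and early growth list 8 of 16 were higher and 2 lower, with a median of 0.72, above that of all genes in all 8 scalings (0.38 to 0.70) but below 0 with spike-in centring. Gadd45b lay at 0.026, 2.11 and 3.1 on the chimeric arrays, against -0.44, -1.21, -1.45 and -1.32 on the SD arrays. This stress sensor gene was higher without overlap at 2.95 ± 0.39 (adjusted p = 2e-07), as were the immediate early genes Junb at 2.31 ± 0.32 and Jun at 1.66 ± 0.50. Cdkn1a, the inhibitor p21, differed by 0.69 ± 0.16 and by -1.03 at a second probe. Cyclin D1, Ccnd1, was lower at -0.69 ± 0.25 (adjusted p = 0.014) but -0.41, adjusted p = 0.096 without chimeric arrays 2 and 4, and -0.54, adjusted p = 0.076 without SD rat 2. Of 29 replication and mitosis genes 9 were higher and 8 lower, and 5 of the 29 had no chimeric array above background. The mitotic kinase gene Aurka and the survivin gene Birc5 were higher at 1.18 ± 0.21 and 1.17 ± 0.19 and the replication clamp gene Pcna at 0.76 ± 0.12, while Cdk1 did not pass at -0.21 ± 0.46, adjusted p = 0.69. Of 18 genes of the unfolded protein and ATF4 responses 9 were higher and 5 lower. Herpud1 and Ddit3 were higher at 1.51 ± 0.23 and 1.15 ± 0.18, the chaperone gene Hspa5 at 0.61 ± 0.17, and Hsp90b1 and the ATF4 targets Sesn2 and Asns were lower at -1.49 ± 0.18, -1.59 ± 0.29 and -1.15 ± 0.18, where Asns did not pass after normexp correction (-0.11, adjusted p = 0.37).

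Among 19 NRF2-responsive genes 7 were higher and 6 lower. Gclm, a subunit of glutathione synthesis, had no SD array above background and was at least 9.49-fold higher, whereas its partner Gclc did not pass at -0.047 ± 0.19, adjusted p = 0.83. Gclc passed as lower with quantile normalization (-0.48), spike-in centring (-0.83) and the percentile over probes above background on all 30 arrays (-0.42). Gpx2, a peroxidase of gut and preneoplastic liver, was higher at 2.96 ± 0.62, with 1.48 by a second probe, and the aldose reductase family gene Akr1b8 at 1.62 ± 0.69 (adjusted p = 0.036), a call that ended without SD rat 2, 3 or 4 (1.08 to 1.69) and without chimeric arrays 2 and 4 (1.62). Nqo1 did not pass at -0.36 ± 0.40, adjusted p = 0.42 and the epoxide hydrolase gene Ephx1 was lower at -1.63 ± 0.26. In the fetal, progenitor and preneoplastic list 8 of 16 were higher and 5 lower, with a median of 0.55, above that of all genes in all 8 scalings (0.27 to 0.57) but below 0 with spike-in centring. Spp1 lay at 0.50, 0.92 and 1.47 on the chimeric arrays, against -2.98, -2.82, -3.21 and -3.71 on the SD arrays. Osteopontin, Spp1, which bile duct cells and macrophages also make, was higher without overlap at 4.10 ± 0.41 (adjusted p = 1.3e-09). The fetal albumin relative Afp was higher at 1.23 ± 0.15 and the cadherin gene Cdh17 at 2.06 ± 0.54. The bile duct keratin gene Krt19 and the glypican gene Gpc3 had no chimeric array above background and were at least 10-fold and 1.97-fold lower, where Gpc3 turned positive after normexp correction, and Epcam was lower at -1.86 ± 0.21.

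Interferon-responsive genes were lower in 10 of 20 members and higher in 5, with a median of -0.74, below that of all genes in all 8 scalings (-0.77 to -0.51). Irf7 lay at 3.41, 3.74 and 4.06 on the chimeric arrays, against 0.82, 1.01, 0.034 and 1.05 on the SD arrays. Irf7, a regulator of interferon genes, was higher in every chimeric liver, at 2.99 ± 0.22 (adjusted p = 6.4e-12). The antiviral genes Mx1 and Isg15 were lower at -1.88 ± 0.19 and -2.09 ± 0.24, and Ifit3 was at least 5.34-fold lower. Gbp2 lay at -6.69, -5.93 and -5.37 on the chimeric arrays, against 0.50, 0.55, 0.37 and 0.43 on the SD arrays, and only 1 of the 7 chimeric arrays was above background for it, so the size of this difference is not given. Many of these genes are also made by immune and endothelial cells, whose markers were lower in the same livers, and their part in the result was not tested. Clock genes vary with the hour of sampling, which the labels do not give: Dbp ranged from 0.57 to 5.53 over the chimeric arrays and Bmal1 from -1.74 to 2.05, and neither passed, at 1.46 ± 0.80, adjusted p = 0.1 and 0.22 ± 0.70, adjusted p = 0.79. Among 13 clock genes 2 were higher and 5 lower.

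Housekeeping lists served as a gauge of the scale. Cytosolic ribosomal proteins were higher in 21 of 23 members and lower in 1, with a median of 0.92 that ranged over 0.14 to 1.32 in the 8 scalings. Mitochondrial respiratory chain genes were higher in 21 of 23 and lower in 2, with a median of 0.74 that ranged over -0.047 to 1.14 and turned negative with spike-in centring. Cholesterol synthesis kept a distance from the median of all genes of at least 0.87 over the same scalings, and the ribosomal list one of at least 0.20, while that of the respiratory chain ran over 0.098 to 0.71. Calls of small size depended on the zero of the scale. With spike-in centring Akr1b8, Alas1, Aurka, Birc5, C4bpa, Ces1d, Cyp3a18, Cyp3a2, Ddit3, Fmo1, Foxa1, Gls2, Glul, Gsta2, Gstz1, Id1, Jun, Klkb1, Kng1, Oat, Ppara, Sds and Slc37a4 no longer passed as higher, and C9, Cdkn1a, F2, Hal, Hspa5 and Pcna turned negative. Under median centring Acaa2, Apoa1, Apob, Ccnd1, Fasn, Fdps, Hnf4a, Serpinf2 and Sult2a1 no longer passed as lower, and C3 turned positive.

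**Figure D4:**
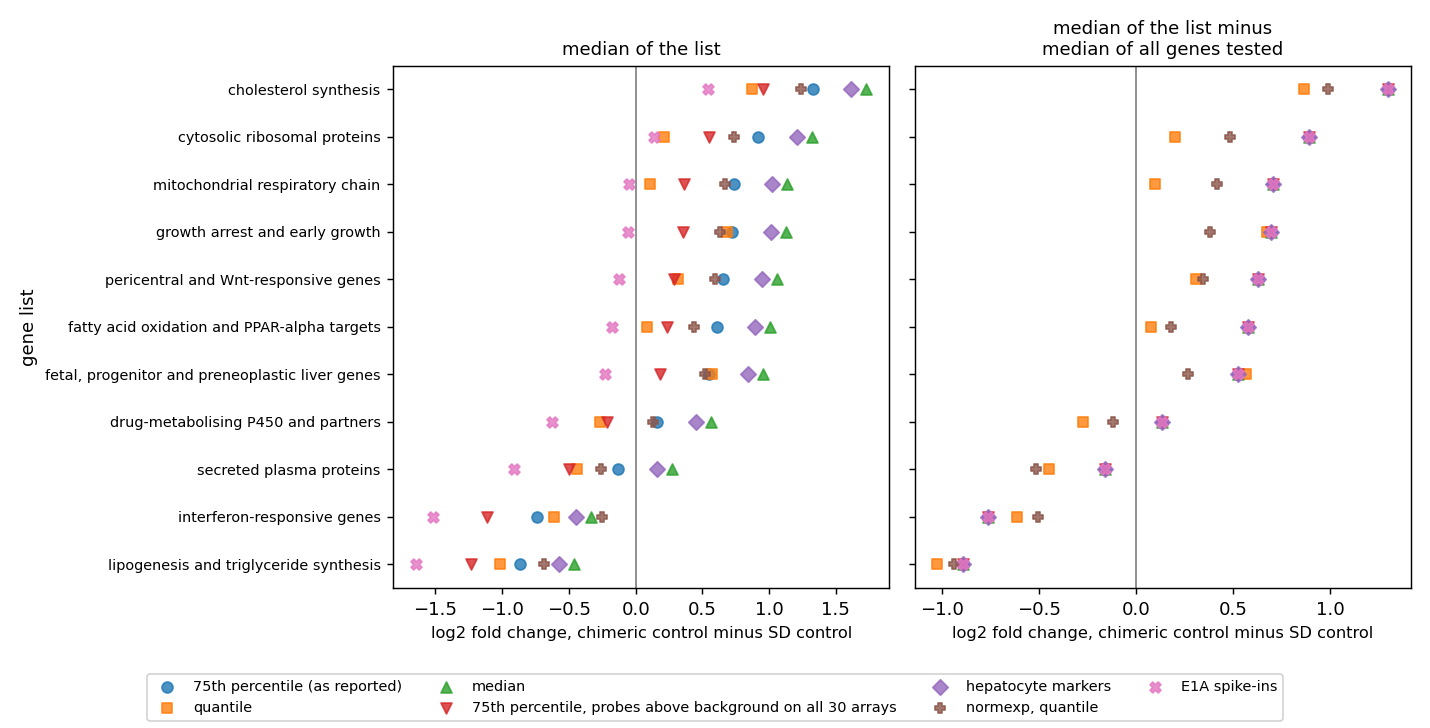
The median log2 fold change (x axes, chimeric control minus SD control) of 11 gene lists under 7 scalings, as it stands (left) and relative to the median of all genes tested (right). Cholesterol synthesis stays above and lipogenesis below 0 under each of the 7, while the P450 list changes sides.

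The most extreme named genes were also listed without regard to function. Of genes above background on every array of at least 1 group, the highest differences belonged to Rps12l4, Gpihbp1, Igfbp2, Hrh4, Clca5, Rnf186, Ms4a8, Arg2, Wfdc18 and Acsm5. Rps12l4, a ribosomal protein S12 copy whose probe may also bind near-identical copies, had no SD array above background and was at least 169.8-fold higher. Gpihbp1, the capillary anchor of lipoprotein lipase, was at least 63.5-fold and the mitochondrial arginase gene Arg2 at least 17.9-fold higher. For Clca5, Ms4a8 and Wfdc18 the bounds were 23.9-fold, 21.8-fold and 20.5-fold, and second probes of Clca5 and Wfdc18 were not above background on any of the 11 arrays. Hrh4 lay at 3.26, 4.77 and 6.28 on the chimeric arrays, against -0.97, -1.01, -1.54 and -1.54 on the SD arrays. Hrh4, a histamine receptor gene, was higher in every chimeric liver at 6.07 ± 0.45 (adjusted p = 6.5e-12). Acsm5 lay at 4.71, 5.27 and 5.52 on the chimeric arrays, against -1.16, 1.01, -0.44 and 1.69 on the SD arrays. Acsm5, a medium-chain acyl-CoA synthetase gene, was higher at 4.90 ± 0.44 (adjusted p = 2.5e-10), with 1.41 by a second probe, and its relative Acsm2 at 3.97 ± 0.44. The ubiquitin ligase gene Rnf186 differed by 5.47 ± 0.73, with 2 of 4 SD arrays above background. Among genes above background on all 11 arrays the list added Pcyox1l at 4.12 ± 0.36, the mRNA decay factor gene Zfp36 at 4.11 ± 0.32, the transcription factor gene Tcf15 at 3.93 ± 0.33 and the granulocyte growth factor gene Csf3 at 3.85 ± 0.22. A second Pcyox1l probe was not above background on any of the 11 arrays.

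At the other end stood Hbb, Cfd, Aif1, Rac2, Plvap, C1qc, Fcgr2b, Plac8, Cyba and Marco, most of them genes of blood, endothelium or macrophages. Their order rests in part on chimeric signals at background. Cfd, complement factor D, and Rac2, a GTPase of blood cells, had no chimeric array above background and were at least 265-fold and 204-fold lower. Plvap, the diaphragm protein of endothelium, lay at -6.96, -6.57 and -3.85 on the chimeric arrays, of which 1 was above background, against 1.71, 2.77, 2.11 and 2.01 on the SD arrays. Plac8 lay at -6.39, -5.18 and -3.43 on the chimeric arrays, against 1.92, 2.21, 1.71 and 1.76 on the SD arrays, with 1 of 7 chimeric arrays above background. The Fc receptor gene Fcgr2b had 2 of 7 chimeric arrays above background by its brightest probe, and a second probe that was above it on all 11 arrays differed by -4.40. The NADPH oxidase subunit gene Cyba differed by -6.99 ± 0.31. Among genes above background on all 11 arrays, Stac3 was in the same rank, beside the chemokine genes Ccl6 at -5.89 ± 0.30 and Ccl5 at -5.33 ± 0.18, the globin gene Hbe2 at -5.52 ± 0.40, Dnase1l3, an extracellular DNase, at -5.02 ± 0.28, and Vipr1, Synm and Tinagl1 at -4.83 ± 0.96, -4.60 ± 0.36 and -4.45 ± 0.33. A second Synm probe was not above background on any of the 11 arrays. The markers of blood, endothelium and macrophages moved the same way in these livers, as given above, and their part in these differences was not tested.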

How the data were processed

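Livers were kept in RNAlater, and Cy3-labelled cRNA from 100 ng of total RNA was hybridised, per the labels' protocols. Signals came from Agilent Feature Extraction 10.7.3.1, per the file headers, as background-corrected processed intensity per spot, which the authors deposited beside raw median intensity. The authors also deposited a table of log2 values, whose scale and centring are not described in the sources used here; its values followed log2 processed signal with a constant shift per array. Here control and outlier spots were dropped and spots of a probe averaged. log2 processed intensity was scaled to the 75th percentile of each array. Of 30367 probes, 18004 matched a RefSeq symbol, and the brightest probe over the 16 rat arrays stood for a gene. Genes entered the test if at least 75% of the arrays of either group had the probe well above background. limma 3.58.1 (R 4.3.3) fitted 6 group means over all 30 arrays. Named genes were the 10 highest and 10 lowest of 2 rankings, the leading members of each of 35 lists and 9 marker lists, and preset key members; some of these are not reported here. Members and lists were chosen with earlier results of these data known. The fit was tested on simulated data with 200 changed genes. Alternatives covered scaling, background, probe choice, filters, weights, blocks and each array left out.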

Additional observations from a re-analysis of the deposited data

Results flagged for a closer look

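In some genes 1 liver stood far from the others of its group, by Dixon's criterion. This was the case for 10 of 223 genes in the 7 chimeric livers and 15 of 223 in the 4 SD livers, and chance alone gives about 1 in 20 groups. Chimeric array 2, one of the dim arrays, was the highest of its group for Cyba (-1.54), Foxa1 (1.03), Hk1 (-3.11), Plvap (-3.85) and Tinagl1 (-1.08). Chimeric array 6 was the highest for Il1rn (5.55), Jun (3.24), Rnf186 (3.37) and Sds (5.90) and the lowest for Bmal1 (-1.74).

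Among the SD livers, rat 1 was highest for Clec4f (5.06) and lowest for Ahcy (6.45). Rat 2 was highest for Cyp2b2 (3.21) and Tm7sf2 (3.73) and lowest for Kng1 (5.64) and Mlxipl (1.03). Rat 3 was highest for Foxa1 (-0.27) and lowest for Nr0b2 (3.11), Slc22a5 (-3.62), Synm (0.73) and Tinagl1 (1.41). Rat 4 was highest for Cpt1a (2.58) and lowest for Dcn (-1.75), Id1 (-3.77) and Igfbp3 (3.46). All of these are log2 levels relative to the array's 75th percentile.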

How the results depend on the processing

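The total of genes past the test was 13002 as reported. It ranged over 9849 to 18233 across the alternatives, the lower figure from genes above background on all 11 arrays and the higher with no filter on dim probes. Genes higher in chimeric livers numbered 1923 with spike-in centring, chosen after seeing the data, and 11467 without the filter, against 6704. Genes lower numbered 4118 with median centring, 3910 with normexp, 11049 with spike-in centring and 3517 for genes above background on all 11 arrays, against 6298. The median of all genes was 0.01 with quantile normalization, 0.25 with normexp, 0.32 centred on hepatocyte markers and -0.34 with the percentile over probes above background on all 30 arrays. Leaving out 1 array at a time gave 12395 to 13084 genes past the test, 6391 to 6773 higher and 5909 to 6318 lower. A fit on only the 11 arrays of both groups gave 12455, of which 6573 were higher and 5882 lower. In that fit Apoa1, Fdps and Sds no longer passed (adjusted p = 0.078, 0.084 and 0.051), while Hamp, Mt1 and Srd5a1 did (0.046, 0.033 and 0.040). With the replicate block 11547 genes passed, 6049 higher and 5498 lower; the numbers did not pair the samples (correlations of deviations of -0.082 to 0.031), and only replicate 3 correlated best with its own number. A slide block was not run, because slide and group cannot be told apart.

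Of the 223 genes named, 154 kept direction and side of the threshold under each alternative run, 50 changed side and 19 changed direction at least once; the cause was not tested. With spike-in centring Alb (-0.76), C9 (-0.35), Cdkn1a (-0.090), Cyp2c11 (-0.50), F2 (-0.29), Hal (-0.23), Hp (-0.71), Hspa5 (-0.18), Igf1 (-0.73), Nr1i2 (-0.40), Obp3 (-0.78), Pcna (-0.018) and Ttr (-0.58) turned negative. So did Alb (-0.24), C9 (-0.25), Cdkn1a (-0.013), Hal (-0.15), Hp (-0.21), Hspa5 (-0.089), Igf1 (-0.19) and Obp3 (-0.23) with quantile normalization. With the percentile over probes above background on all 30 arrays it was Alb (-0.35), Hp (-0.30), Igf1 (-0.31) and Obp3 (-0.37). Median centring turned C3 (0.074), F9 (0.33) and Tf (0.30) positive, normexp Gpc3 (0.31) and another choice of brightest probe Fdps (0.22). Some genes that did not pass as reported passed elsewhere. With spike-in centring Abcc2, F9, Gclc, Gstp1, Nqo1, Nr0b2, Pck1, Slco1b2, Srd5a1, Tat and Tf passed as lower. Under median centring Alb, Cpt1a, Cyp2c11, Dbp, Hp, Igf1, Mt1, Nr1i2, Nr1i3, Obp3 and Ttr passed as higher. The mean of all probes turned Gsta3 positive (1.13) and Cdkn1a (-0.17) and Igf1 (-0.24) negative. Of 44 lists, 26 kept their side of the all-gene median over the 8 scalings, of which only quantile normalization and normexp could move it, and 12 the sign of their own median. Background limits low genes: 1288 genes had no chimeric array above it, and why was not tested.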
